A study of Mus musculus with 2 samples.

Results

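The nuclear-encoded respiratory chain genes were taken as every gene whose symbol begins with Nduf followed by a, b, c, s or v, with Uqcr, with Cox followed by a digit from 4 to 8, or with Atp5, together with Sdha, Sdhb, Sdhc and Sdhd. This name rule found 93 gene IDs (92 symbols) among the 31053 genes of the count matrix. Of these, 36 belong to complex I, 8 are complex I assembly factors (Ndufaf genes), 4 belong to complex II, 8 to complex III, 18 to complex IV and 17 to complex V. The remaining 2, Ndufa4 and Ndufa4l2, carry complex I names, but the Ndufa4 protein is now placed in complex IV, so they were kept apart. Some complex IV genes with names such as Cox11 or Cox17, which serve assembly, lie outside the rule and were handled as a companion list.

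MTC-Q1 cells, an oral cancer line of the mouse, had been grown under the skin of C57BL/6 mice, and the tumours were the source of all cells. One group carried unmodified MTC-Q1 cells (WT) and the other carried MTC-Q1 cells with miR-21, a microRNA, knocked out (KO). Both groups grew for 2 weeks, then received cisplatin, a drug that crosslinks DNA, at 5 mg/kg and were taken 72 hours later, so the groups share the drug. Dead cells were removed, CD45-positive cells were selected on beads, and 1 droplet library of transcript 3′ ends was made per group. The sources used here do not give the age or number of mice per library, or whether the knockout cells were 1 clone. No source ties the library number on each barcode to a group, so values are given for library 1 and library 2 with no direction between WT and KO.

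Complexes I to IV pass electrons from NADH and succinate to oxygen, and all but complex II pump protons across the inner mitochondrial membrane. Complex V, the ATP synthase, uses the proton gradient to make ATP. All of these complexes except complex II combine subunits encoded in the nucleus with a few encoded in mitochondrial DNA (the mt- genes), so their assembly draws on both genomes. Resting lymphocytes are known for a small energy metabolism that is enlarged on activation, while macrophages and dendritic cells are known to shift between respiration and glycolysis with their state.

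Library 1 held 5320 barcodes and 57488236 UMIs (unique molecular identifiers, each standing for 1 captured transcript), and library 2 held 7194 barcodes and 149734240 UMIs. After the limits on cells, 5241 and 7098 cells remained, with medians of 7195 and 15363 UMIs per cell. Library 1 was richer in naive-type lymphocytes and library 2 in macrophages, effector lymphocytes and collagen-positive cells. Of the 93 member IDs, 91 had a UMI and 88 had at least 100 UMIs in these cells. Cox8c and a second gene ID of Atp5o had none, and Cox4i2, Cox7b2 and Cox8b had 97, 3 and 1. Over all cells the members took 16700 counts per 1000000 UMIs (CPM) in library 1 and 26908 CPM in library 2. The libraries also differed in other transcripts: the 13 mt- mRNAs took 37533 and 22364 CPM, cytosolic ribosomal protein genes 334693 and 249265 CPM, and Gm42418, which overlaps ribosomal RNA, 25044 and 7336 CPM. The part of these shifts in the differences between libraries was not tested.

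Cells were placed in 14 classes by marker genes. The text compares most closely the 9 classes with at least 200000 UMIs in both libraries. Each class is called X-like, and markers of the named lineage were detected in every class (6 of 7 migratory dendritic markers in library 1, and every listed marker elsewhere). Most of these markers also set the gates, so their detection is no separate support for the names. Effector-type CD8 stands for T cells with Cd8 transcripts and few transcripts of naive-type genes. No effector gene entered that gate, and the markers listed for it are those of T cells in general. The class gated on collagen genes went against the CD45 label: it had 8.92 and 14.9 CPM of Ptprc, the CD45 gene, against at least 196 CPM in every other class. It is called stromal, and whether its cells came from the host or from the tumour line was not tested. The 55 naive-type CD8 T cell-like cells of library 2 also stood apart: 58.2% of them carried cell cycle transcripts against 0.896% of the 1227 in library 1. Dendritic classes are abbreviated cDC1 and cDC2 (conventional), migratory DC, and pDC (plasmacytoid, known as a main source of type I interferon).

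The summed level of the module was lowest in naive-type lymphocytes of library 1. Naive-type CD4 T cell-like cells had 12659 CPM (95% interval from counting error 12554 to 12765), naive-type CD8 T cell-like cells 13522 CPM (13450 to 13594) and B cell-like cells 13988 CPM (13845 to 14131). In the same library regulatory T cell-like cells had 18140 CPM, monocyte-like cells 19582 CPM and macrophage-like cells 19818 CPM. The levels of monocyte-like and macrophage-like cells had overlapping intervals. Other T cell-like cells followed with 22146 CPM and cDC2-like cells with 23909 CPM. NK cell-like cells had 24102 CPM, effector-type CD8 T cell-like cells 24604 CPM and stromal cells 24669 CPM, and neighbours in this order, from cDC2-like to stromal cells, had overlapping intervals. Levels of 25283 CPM in the 18 pDC-like cells and 25601 CPM in the 6 cDC1-like cells were the highest of library 1, with intervals that overlapped each other.

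Library 2 spanned a narrower range. Its lowest level was 18324 CPM, in only 6 naive-type CD4 T cell-like cells. Monocyte-like cells had 23193 CPM, macrophage-like cells 23505 CPM and cDC2-like cells 24414 CPM. Apart from the naive-type CD4 cells, the T and NK classes lay between 26815 CPM (naive-type CD8) and 28962 CPM (NK). pDC-like cells had 28967 CPM and stromal cells 29417 CPM. Levels were 19716 CPM in 3 B cell-like cells, 20967 CPM in migratory DC-like and 26408 CPM in cDC1-like cells. Per cell, the median share of UMIs given to the module was 1.27% in the naive-type CD8 cells of library 1 and 2.22% in its effector-type CD8 cells, and 2.60% and 2.75% in library 2. Summed CPM do not separate fewer transcripts per cell from more transcripts of other genes.

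**Figure D1:**
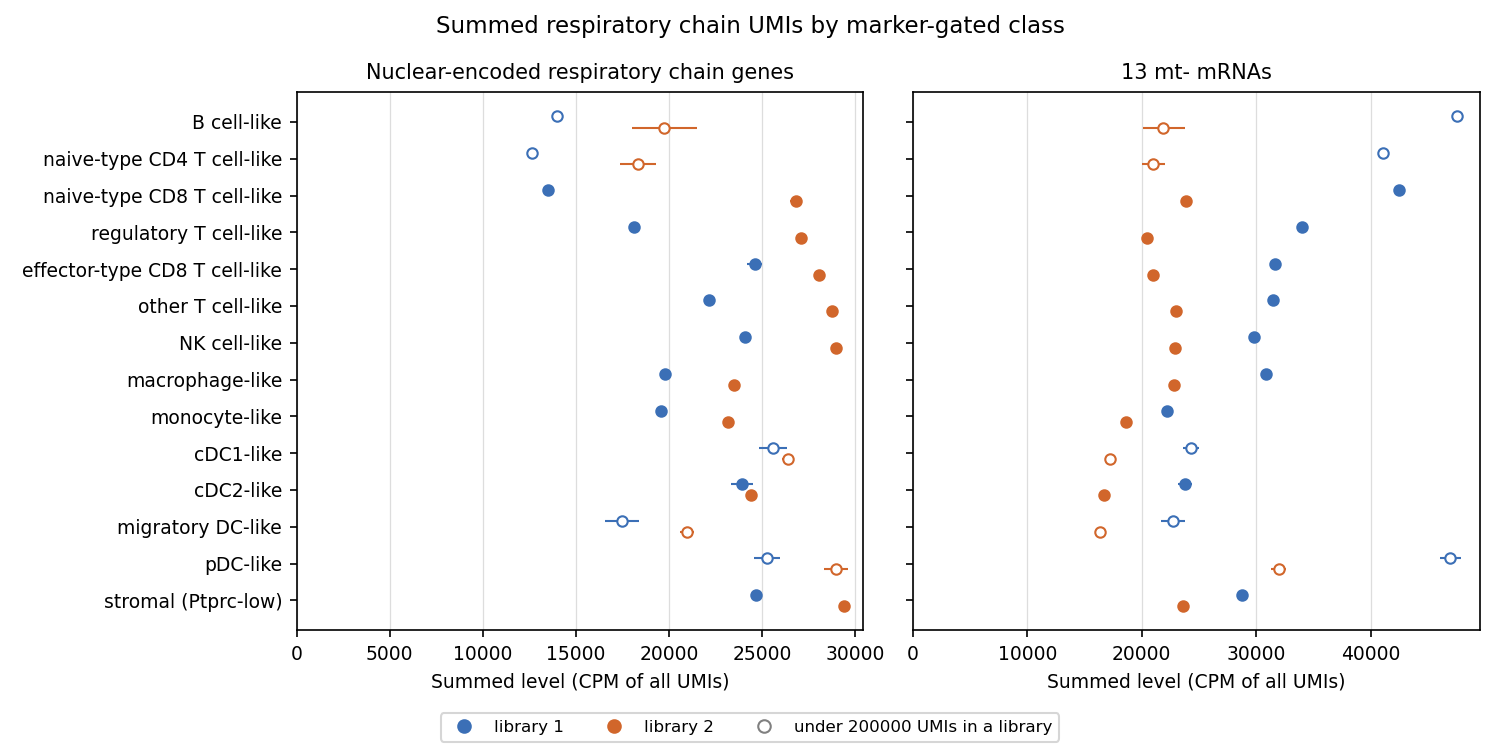
Summed level of the 93 nuclear-encoded respiratory chain genes (left) and of the 13 mt- mRNAs (right) by class, in CPM, with exact Poisson 95% intervals. Blue is library 1 and orange is library 2, and open points are classes with under 200000 UMIs in either library. The naive-type lymphocyte classes of library 1 lie lowest on the left and, with pDC-like cells, highest on the right.

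The 3 lymphocyte classes of library 1 with the lowest module levels, naive-type CD4, naive-type CD8 and B, were with pDC-like cells the highest of that library in mt- transcripts. This inverse order did not hold over all classes: monocyte-like cells of library 1, also low in the module, had its lowest mt- level, 22226 CPM. In library 1 the mt- transcripts took 47542 CPM in B cell-like, 42476 CPM in naive-type CD8 T cell-like and 31636 CPM in effector-type CD8 T cell-like cells. In library 2 the same 3 classes had 21877, 23909 and 21018 CPM, the first from only 3 cells. Member UMIs per mt- UMI were therefore 0.318 (0.316 to 0.320) in naive-type CD8 and 0.778 (0.762 to 0.794) in effector-type CD8 T cell-like cells of library 1. They were 1.12 and 1.34 in library 2. Among the 9 classes the ratio was highest in cDC2-like cells of both libraries, at 1.01 (0.971 to 1.04) and 1.46 (1.44 to 1.49). pDC-like cells had a high module level but also 46985 and 31977 CPM of mt- transcripts, which gave ratios of 0.538 and 0.906. The ratio was higher in library 2 in all 9 classes, and the mt- level was higher in library 1 in all 14.

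The nuclear-to-mt ratio could also be split by complex, since mt-Nd, mt-Cytb, mt-Co and mt-Atp genes belong to complexes I, III, IV and V. In naive-type CD8 T cell-like cells of library 1 it was 0.372 for complex I, 0.384 for complex III, 0.180 for complex IV and 0.523 for complex V. Effector-type CD8 T cell-like cells of that library had 1.11, 0.901, 0.411 and 1.28. Complex IV had the lowest ratio of the 4 in every class and library. Every one of the 4 was higher in effector-type than in naive-type cells, in library 2 as well.

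Effector-type and naive-type CD8 T cell-like cells were compared within each library. In library 1 the sum of the members was higher by 0.86 on the log2 scale (0.84 to 0.89). Of 78 members with at least 100 UMIs, 65 were at least 1.5-fold higher with an interval that excluded equality, and 1 was lower. Over the 6378 genes measured with that depth, 29.0% were higher by this rule and 11.7% were lower. The median log2 ratio was 1.05 for the members and 0.22 for all genes. These counts describe 59 and 1227 cells of 1 library and are not a test of the cell types.

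Complex I gave 33 higher members of 36. Among the 5 members of any complex with the highest ratios were Ndufaf2 (46.7 against 11.4 CPM, log2 ratio 2.04), an assembly factor, and its paralog Ndufa12 (162 against 48.8 CPM, 1.73), a subunit of the finished complex. The others were Ndufab1 (157 against 49.4 CPM, 1.67), which is also the mitochondrial acyl carrier protein, Atp5k (474 against 153 CPM, 1.63), the e subunit of ATP synthase, and Cox5b (650 against 218 CPM, 1.57), a complex IV subunit. In complex II, 3 of 4 were higher. Its catalytic flavoprotein gene Sdha had 67.0 and 59.6 CPM (0.17, interval -0.31 to 0.62). Complex III had 5 of 8 higher members, complex IV 9 of 11 measured and complex V 13 of 15. Ndufa4 was also higher, at 455 against 249 CPM.

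Cox7a2l (chr17:83501918-83517330, minus strand, GENCODE M21 on mm10) was the 1 member that was lower in effector-type cells. Its protein joins complexes III and IV into supercomplexes, and C57BL/6 mice are known to carry a short form of it. In library 1 it had 587 CPM in naive-type CD8, 584 CPM in naive-type CD4, 421 CPM in regulatory and 363 CPM in B cell-like cells. Effector-type CD8 T cell-like cells had 283 CPM, macrophage-like cells 292 CPM, NK cell-like cells 260 CPM and monocyte-like cells 212 CPM. The log2 ratio of effector-type over naive-type CD8 was -1.05 (-1.27 to -0.84). In library 2 the level ranged from 211 to 292 CPM over the 9 classes, with 275 CPM in the naive-type CD8 cells. Uqcrh, the hinge subunit of complex III, and Ndufa6 of complex I also had ratios under 0 in library 1, at -0.17 (-0.31 to -0.03) and -0.11 (-0.34 to 0.11), but were not past 1.5-fold. The ratio of Ndufa6 was 0.035 without cycling cells. Over the 18 totals of 9 classes in 2 libraries, the log2 level of Cox7a2l had a Pearson r of -0.77 with the module. That of Atp5o was 0.98. These points share libraries and depth, and the values are descriptions.

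The contrast was much smaller in library 2. The members' sum had a log2 ratio of 0.07 (0.05 to 0.08), 28065 against 26815 CPM, and 0 of 81 members were past the 1.5-fold rule in either direction, against 5.09% of 7253 genes higher and 5.03% lower. With a stricter gate, which left 26 naive-type cells, the direction turned, with 28032 against 28088 CPM. The naive-type cells there were mostly cycling, as given above. Leaving cycling cells out left 23 naive-type and 314 effector-type cells with 23883 and 26839 CPM. Whether the difference between libraries in this contrast follows the tumours or the makeup of the gate was not tested.

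Naive-type cells of library 1 also gave more of their UMIs to ribosomal proteins, 428521 CPM against 321434 CPM, and to mt- transcripts. With mt-, ribosomal protein and Gm42418 counts taken out of the total, the median log2 ratio of all genes in library 1 moved from 0.22 to -0.09. The members' sum was then higher by 0.55, with 48 members higher and 1 lower, Cox7a2l at -1.36. Of all genes, 18.1% were then higher and 21.5% lower. Without cycling cells in either class the log2 ratio was 0.73, with 56 members higher and 1 lower.

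**Figure D2:**
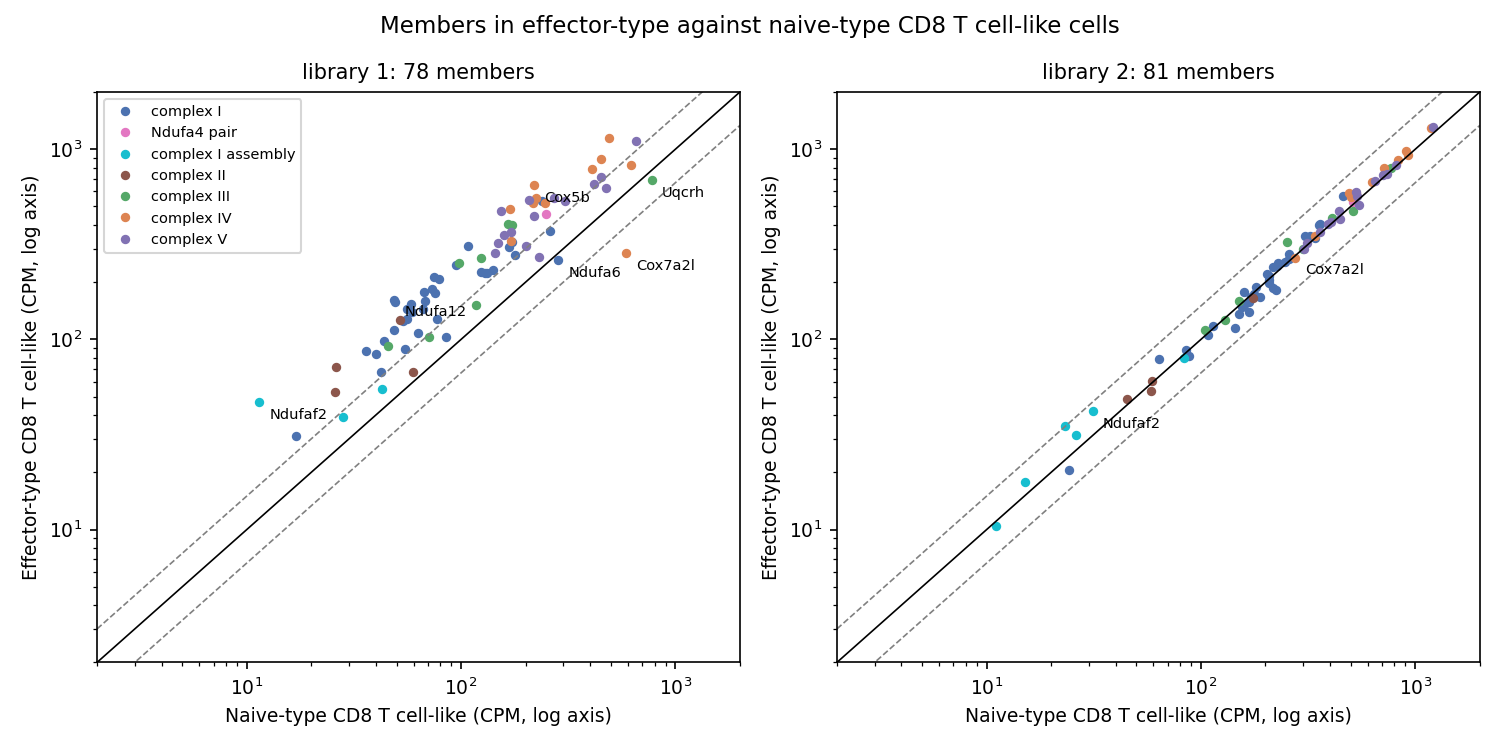
Level of each member with at least 100 UMIs in effector-type (vertical) against naive-type (horizontal) CD8 T cell-like cells, in CPM on log axes, coloured by complex, for library 1 (78 members) and library 2 (81 members). The solid line marks equality and the dashed lines 1.5-fold. In library 1 most points lie above the upper dashed line (65 members were higher by the rule) and Cox7a2l lies below the lower one. In library 2 the points lie along the line of equality.

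Companion genes of mitochondrial energy metabolism were read in the same contrast of library 1, in which 29.0% of all genes were higher and 11.7% lower. Of 69 measured mitochondrial ribosome genes, 54 were higher and 0 lower, with a median log2 ratio of 1.07. Of 22 measured electron carrier and assembly genes outside the name rule, 13 were higher and 0 lower, among them cytochrome c, Cycs (304 against 114 CPM), Cox17 (276 against 94.9 CPM), a copper carrier for complex IV, and Coa3 (77.9 against 17.6 CPM), a complex IV assembly factor. Of 16 genes of the TCA cycle, 8 were higher and 0 lower. Glycolysis had 9 higher and 1 lower of 15, the lower one being Pdk1, a kinase that inhibits pyruvate dehydrogenase (21.8 against 86.1 CPM). Of 12 uncoupling and quality control genes 4 were higher and 3 lower, and of 82 cytosolic ribosomal protein genes 2 were higher and 12 lower. The 4 higher quality control genes and the 12 lower ribosomal protein genes were near the shares of all genes and are no result about those lists. Of 12 biogenesis regulators, 2 were higher (Slirp and Myc) and 1 was lower (Polg, the mitochondrial DNA polymerase). Atpif1, the inhibitor of ATP synthase, had 249 against 60.2 CPM, a log2 ratio of 2.05. The mt- mRNAs had 0 higher and 5 lower of 13. In library 2 the same 8 lists together had 4 genes higher, all of the mitochondrial ribosome, and 2 lower, 1 each in the lists of glycolysis and of carriers and assembly, against 5.09% of all genes higher and 5.03% lower.

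Since 65 of 78 members were higher together in 1 contrast, the promoter windows of the members were read for 3 sequence motifs of factors known to act on respiratory genes. RefSeq windows of 300 bases on GRCm38.p6, from 250 before to 50 after the transcript start, were matched to 74 members and to 27025 genes in all. The consensus of NRF1 was found on either strand in 24.3% of the member windows and in 4.78% of all windows. The motif CCGGAAG of ETS factors such as GABP was in 23.0% against 9.12%, and an extended form of the YY1 motif in 6.76% against 0.699%. At least 1 of the 3 was in 34 of 74 member windows, 45.9% against 13.5% of all genes, and matches of different motifs overlapped in 0 of them. Member windows had a median of 19.5 CpG dinucleotides against 7 in all windows, and these motifs hold CpG. A match is a run of letters and a description only.

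The following windows are shown for members picked by hand as examples. Cox6a1 and Atp5k hold NRF1 and ETS matches, Cox7a2l is the member that was lower in effector-type cells, and Cox6b1 and Cox6b2 are a broad and a restricted form of 1 subunit. Each runs 5′ to 3′ along the gene, with motif matches in capitals, where CTTCCGG is the ETS motif on the opposite strand. Cox6a1 has 2 NRF1 matches and 1 ETS match, Atp5k has 1 of each, and Cox6b1 has 1 ETS match. Cox7a2l and Cox6b2 have none of the 3. The same holds for Ndufaf2, Ndufa12, Ndufab1 and Cox5b, which were among the members with the highest ratios in effector-type cells. Ndufa6 (NRF1) and Uqcrh (ETS), with ratios under 0 in library 1, do hold a match. Matches therefore did not sort these members by direction. The Cox7a2l window lies at a RefSeq start inside the GENCODE span of the gene.
Cox6a1 (chr5:115348909-115349208, minus strand): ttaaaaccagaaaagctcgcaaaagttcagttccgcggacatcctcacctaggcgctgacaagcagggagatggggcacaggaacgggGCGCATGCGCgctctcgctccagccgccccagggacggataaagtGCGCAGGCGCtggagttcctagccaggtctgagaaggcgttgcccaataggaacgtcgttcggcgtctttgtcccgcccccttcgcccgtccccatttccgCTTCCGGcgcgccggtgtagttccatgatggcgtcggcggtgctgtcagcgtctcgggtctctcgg
Atp5k (chr5:108434350-108434649, minus strand): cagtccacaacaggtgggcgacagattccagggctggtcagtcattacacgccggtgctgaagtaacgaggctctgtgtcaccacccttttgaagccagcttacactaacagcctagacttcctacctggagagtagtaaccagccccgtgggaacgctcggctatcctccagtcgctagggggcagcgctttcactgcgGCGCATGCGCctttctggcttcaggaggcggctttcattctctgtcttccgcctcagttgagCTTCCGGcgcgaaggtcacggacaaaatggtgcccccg
Cox7a2l (chr17:83514284-83514583, minus strand): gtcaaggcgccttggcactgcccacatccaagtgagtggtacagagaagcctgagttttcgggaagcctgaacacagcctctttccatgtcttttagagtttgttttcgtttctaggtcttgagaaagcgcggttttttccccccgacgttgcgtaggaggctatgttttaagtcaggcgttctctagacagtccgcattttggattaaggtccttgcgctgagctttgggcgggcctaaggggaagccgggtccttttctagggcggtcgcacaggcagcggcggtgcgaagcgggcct
Cox6b1 (chr7:30626065-30626364, minus strand): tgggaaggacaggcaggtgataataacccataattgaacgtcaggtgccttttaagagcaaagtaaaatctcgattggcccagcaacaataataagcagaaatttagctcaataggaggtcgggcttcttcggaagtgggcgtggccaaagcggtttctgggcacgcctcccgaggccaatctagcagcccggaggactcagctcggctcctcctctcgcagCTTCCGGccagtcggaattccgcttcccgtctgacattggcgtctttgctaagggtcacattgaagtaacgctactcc
Cox6b2 (chr7:4753045-4753344, minus strand): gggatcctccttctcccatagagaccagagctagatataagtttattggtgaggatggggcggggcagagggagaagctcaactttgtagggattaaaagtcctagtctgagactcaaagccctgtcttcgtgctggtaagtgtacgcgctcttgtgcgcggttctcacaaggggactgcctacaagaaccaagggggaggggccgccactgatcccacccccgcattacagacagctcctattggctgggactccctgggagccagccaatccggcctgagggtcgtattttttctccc

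The split of the module among complexes varied little between classes. In effector-type CD8 T cell-like cells complex I took 27.3% and 27.2% of member UMIs in libraries 1 and 2, complex III 9.57% and 9.71%, complex IV 28.5% and 28.3%, and complex V 30.8% and 30.9%. Complex II took 1.29% and 1.17%. Stromal cells gave more to complex I (30.5% and 30.1%) and less to complex IV (26.3% in both). pDC-like cells gave 32.0% (30.7 to 33.3) and 32.2% (31.1 to 33.2) to complex IV, the largest shares of their libraries, though migratory DC-like cells of library 2 were close at 31.7%, and Cox6a2 accounts for 251 and 461 of these UMIs. Macrophage-like cells gave the most to complex II, 1.95% (1.87 to 2.04) and 1.70% (1.67 to 1.73). Counts of 3′ ends do not scale with transcript length, but capture can differ between genes, so shares of complexes are not shares of protein.

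Across the 9 classes, 82 members reached 20 CPM in at least 1 class of each library, and 40 of them had their highest level in the same class in both libraries. Stromal cells were that class for 25 of the 40, NK cell-like cells for 7. In library 1, 69 of the 82 were lowest in naive-type CD8 T cell-like cells. In library 2, 32 were lowest in monocyte-like cells and 17 in macrophage-like cells. The median ratio of the highest to the lowest class was 2.62 in library 1 and 1.63 in library 2. These counts and ratios stand without the same values over all genes, so they do not set the members apart from other genes.

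**Figure D3:**
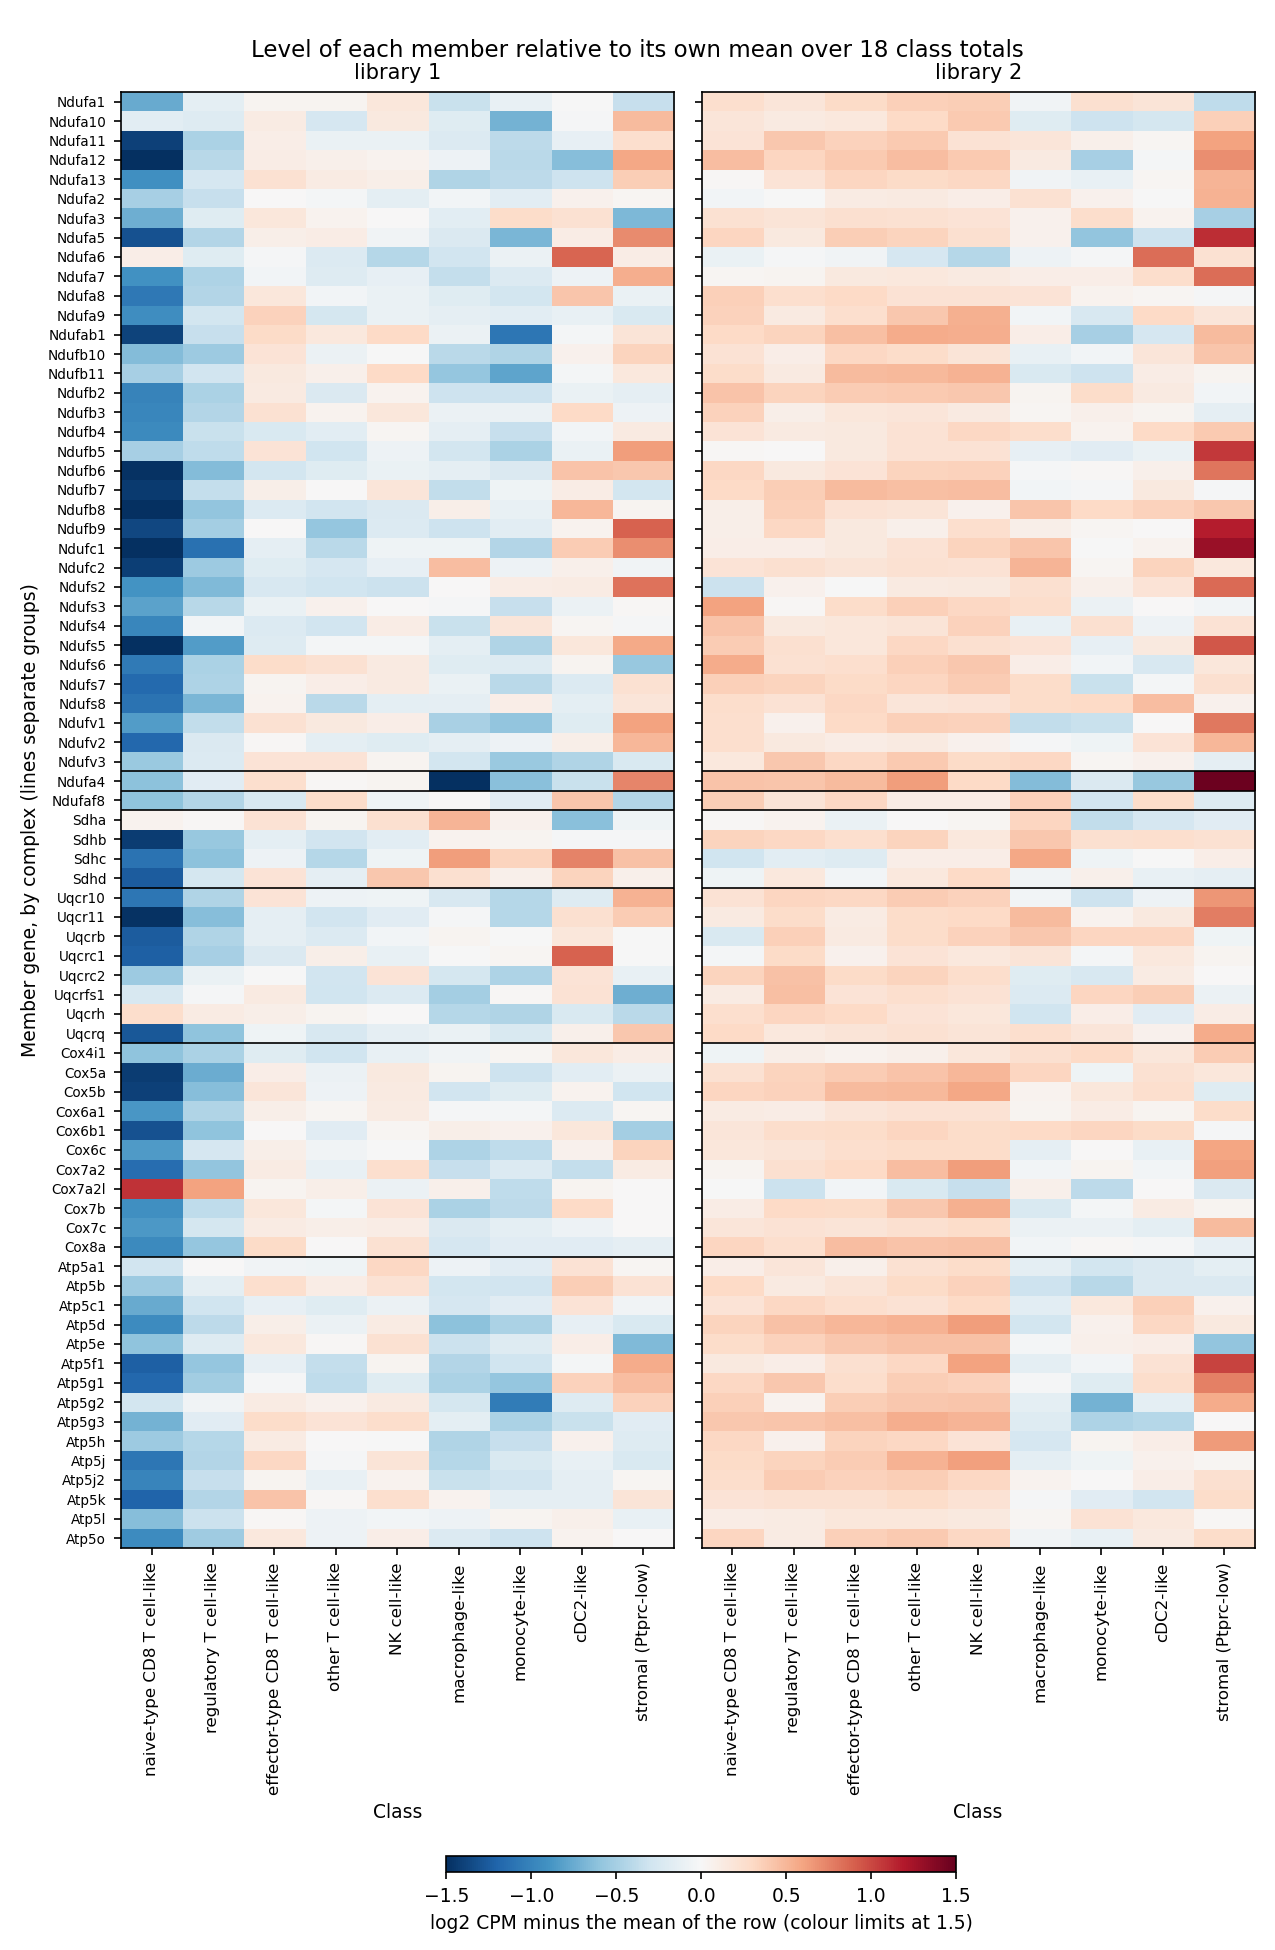
Level of the 75 members with at least 20 CPM in each of the 18 class totals, as log2 CPM minus the mean of the row, for library 1 (left) and library 2 (right), with rows grouped by complex. Blue is below and red above a member's own mean, with colours limited at 1.5. The naive-type column of library 1 is blue for most rows and red for Cox7a2l, with Ndufa6, Sdha and Uqcrh slightly above their means, and Ndufa4 is low in macrophage-like and high in stromal cells.

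Named by the size of this range, the first 10 members included 4 of the complex I assembly factors. Ndufaf2 was highest in stromal cells, at 83.5 and 103 CPM, and lowest at 11.4 CPM in naive-type CD8 cells of library 1 and 17.6 CPM in monocyte-like cells of library 2. Ndufaf4 and Ndufaf6 had the same highest class, with 56.2 CPM for Ndufaf4 in library 2 and 20.2 and 22.7 CPM for Ndufaf6. The lowest levels of Ndufaf4 were 12.8 CPM (17 UMIs) and 7.33 CPM, both in monocyte-like cells. Ndufaf6 had 2.32 CPM in regulatory T cell-like cells of library 1 and 6.19 CPM in monocyte-like cells of library 2. Ranges that rest on so few UMIs are uncertain. Ndufaf3 was highest in cDC2-like cells of library 1 (41.0 CPM) and macrophage-like cells of library 2 (40.2 CPM). It was lowest in naive-type CD8 cells of library 1 (7.89 CPM) and stromal cells of library 2 (14.4 CPM). The complex I subunits Ndufa5 (238 and 314 CPM) and Ndufc1 (316 and 479 CPM) and Atp5g2 (730 and 844 CPM), 1 of 3 genes for the c ring of ATP synthase, were highest in stromal cells. Monocyte-like cells had the lowest Atp5g2, 277 and 351 CPM.

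Ndufa6, an accessory subunit of complex I, was set apart from the rest by cDC2-like cells. It had 485 and 471 CPM there. The other 8 classes had 196 to 285 CPM in library 1 and 196 to 308 CPM in library 2, so cDC2-like cells did not overlap with them in either library. cDC2-like cells were few, 19 and 120, with 268063 and 1445472 UMIs.

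Among the 9 classes, macrophage-like cells had the lowest Ndufa4 of both libraries, 129 CPM in library 1 and 243 CPM in library 2, and stromal cells the highest, 634 CPM and 1061 CPM. The 7 migratory DC-like cells of library 1 and 43 of library 2 had 120 and 178 CPM. Its paralog AA467197 (Nmes1), which is known to take the place of Ndufa4 in complex IV in inflamed tissue and is no member of the name rule, was high in myeloid and low in stromal cells. It had 476 and 332 CPM in macrophage-like, 1037 and 739 CPM in monocyte-like, 1026 and 801 CPM in cDC2-like, and much less in stromal cells. In macrophage-like, monocyte-like, cDC2-like and migratory DC-like cells AA467197 exceeded Ndufa4 in both libraries, and in NK cell-like, pDC-like and stromal cells Ndufa4 exceeded AA467197 in both.

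In T cell-like cells the level of AA467197 differed between libraries. It had 6.23 CPM (4 UMIs) in effector-type CD8 T cell-like cells of library 1 and 152 CPM (1601 UMIs) in those of library 2, where 49.8% of 636 cells had a UMI. Ndufa4 had 455 and 528 CPM there. pDC-like cells of the same libraries had 1 and 5 UMIs of AA467197, in 5.56% and 8.57% of cells, and stromal cells 59.3 and 53.1 CPM. Free RNA estimated from Apoe made up 5.04% of effector-type CD8 UMIs in library 2 and 2.05% in library 1.

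Among tissue-restricted isoforms, Cox6a2 stood out in pDC-like cells. Cox6a2 (chr7:128205435-128206387, minus strand, GENCODE M21 on mm10) encodes the heart and skeletal muscle form of complex IV subunit 6A, and Cox6a1 encodes the form of other tissues. Its level in pDC-like cells was 1276 CPM in library 1 (interval 1123 to 1444) and 1657 CPM in library 2 (interval 1510 to 1816), from 251 and 461 UMIs in 18 and 35 cells. Single cells had 1 to 37 UMIs in library 1 (median 12.5) and 0 to 48 in library 2 (median 11). In the same cells Cox6a1 had 290 and 342 CPM, against 170 to 339 CPM in library 1 and 319 to 375 CPM in library 2 over the 9 classes. Every one of the 18 pDC-like cells of library 1 and 29 of the 35 of library 2 had a Cox6a2 UMI, and 94.4% and 80.0% had one after thinning each cell to 4000 UMIs.

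No other class with at least 200000 UMIs in both libraries passed 7.20 CPM of Cox6a2. That value, in NK cell-like cells of library 1, came from 14 UMIs, and macrophage-like cells had 5.23 and 4.31 CPM. Of the smaller classes, migratory DC-like cells of library 1 had 4 Cox6a2 UMIs among 83345 UMIs, a level above 7.20 CPM, all in 1 of 7 cells. Monocyte-like cells of library 1 had 0 UMIs, which allows up to 2.26 CPM at 3 counts. Thinned to 4000 UMIs, 1.62% and 1.47% of macrophage-like cells had a Cox6a2 UMI. The pDC gate held 0.343% and 0.493% of all cells but 62.1% and 43.5% of all Cox6a2 UMIs. Cells with at least 2 UMIs of the pDC gene Siglech, gated or not, held 332 of 404 Cox6a2 UMIs in library 1 and 794 of 1059 in library 2. Of the cells with at least 5 Cox6a2 UMIs, 16 of 17 and 42 of 46 had at least 2 Siglech UMIs. Cox6a2 was not used to gate any class.

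Cox6b2, the testis form of subunit 6B, was highest in cDC2-like cells. It had 78.3 CPM there in library 1 (interval 48.5 to 120) and 37.4 CPM in library 2 (interval 28.1 to 48.7). Macrophage-like cells had 16.6 and 22.2 CPM. A UMI was seen in 42.1% and 26.7% of cDC2-like cells and, after thinning, in 31.6% and 12.5%. pDC-like cells had 0 and 1 UMIs of it. The broad form Cox6b1 had 619 and 675 CPM in cDC2-like cells, so Cox6b2 was a small part of the pair. Cox7a1, the heart and muscle form of subunit 7A, was highest in macrophage-like cells, with 68 UMIs (12.3 CPM) in library 1 and 513 UMIs in library 2, where its broad partner Cox7a2 had 375 and 466 CPM. Cox4i2, the lung form of subunit 4, had 0.361 and 1.72 CPM in macrophage-like cells against 908 and 1117 CPM of Cox4i1. Ndufa4l2, a gene known to rise in hypoxia, was highest in stromal cells at 6.74 and 13.2 CPM. All 27 of its UMIs in monocyte-like cells of library 2 came from 0.579% of these cells. Cox7b2 had 3 UMIs, Cox8b 1 and Cox8c 0 in all cells.

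**Figure D4:**
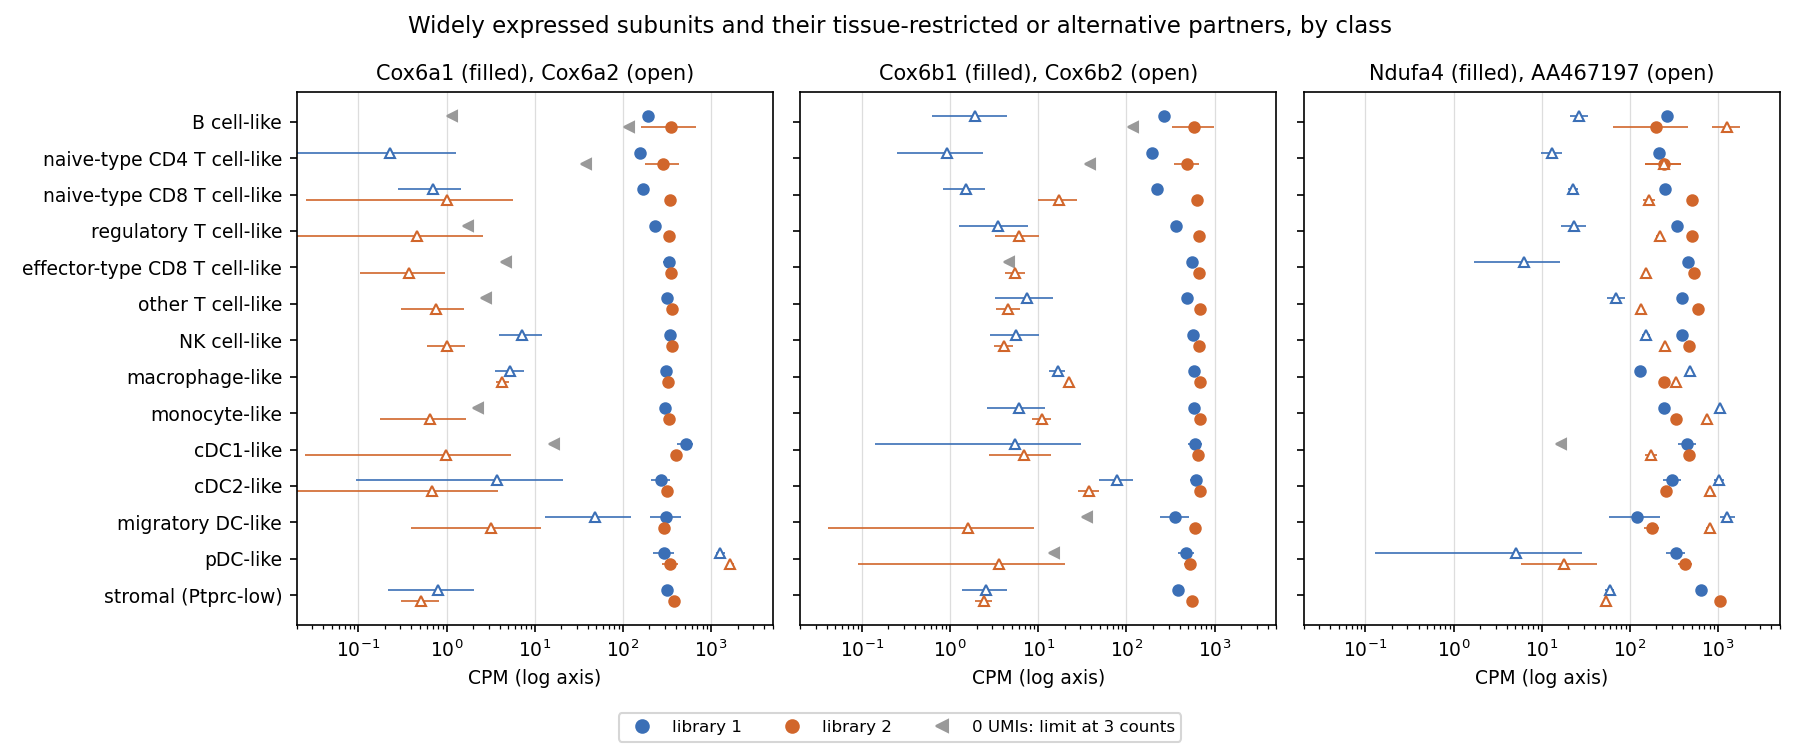
Level in CPM (log axis) of Cox6a1 and Cox6a2, Cox6b1 and Cox6b2, and Ndufa4 and AA467197 by class, with exact Poisson 95% intervals, blue for library 1 and orange for library 2. Filled circles are the first and open triangles the second gene of each pair, and grey triangles mark the limit at 3 counts where no UMI was seen. Cox6a2 exceeds Cox6a1 only in pDC-like cells among the classes drawn, and AA467197 exceeds Ndufa4 in both libraries in the monocyte, macrophage, cDC2 and migratory classes, and in the 3 B cell-like cells of library 2.

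Between libraries, 3 classes had at least 100 cells in each: NK cell-like (130 and 910), macrophage-like (309 and 1698) and monocyte-like (126 and 691) cells. The module was lower in library 1 in all 3 by close to the same amount, with log2 ratios of -0.27 (-0.28 to -0.25), -0.25 (-0.26 to -0.24) and -0.24 (-0.26 to -0.23). Single members moved little: 2 were lower past 1.5-fold and 0 higher in each class. In NK cell-like cells, 4.47% of 8035 genes were lower and 14.8% higher by this rule. The shares were 4.71% and 8.84% of 9711 genes in macrophage-like cells and 5.13% and 14.2% of 5495 in monocyte-like cells. The median log2 ratio of the members was -0.26, -0.26 and -0.24 against 0.12, 0.05 and 0.10 for all genes. A ratio under 0 was seen for 74 of 83, 72 of 87 and 63 of 79 members. Over all genes such ratios were the smaller part, since the medians of all genes lay above 0. At 2-fold, 0 members were higher or lower in any of the 3 classes, against 3.75% and 2.02% of all genes in NK, 2.66% and 1.85% in macrophage-like and 2.68% and 1.98% in monocyte-like cells. With mt-, ribosomal protein and Gm42418 counts left out of the total, the ratios of the sum were -0.25, -0.22 and -0.24.

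The members past the rule were Ndufaf6 (log2 ratio -0.85, interval -1.78 to -0.04, from 13 UMIs in library 1) and Ndufa9 (64.3 against 99.2 CPM) in NK cell-like cells. In macrophage-like cells they were Ndufa4 (129 against 243 CPM, log2 ratio -0.91) and Ndufaf3 (25.1 against 40.2 CPM). In monocyte-like cells they were Ndufb2 (106 against 160 CPM) and Ndufv3 (132 against 198 CPM), both of complex I and both close to the limit, with log2 ratios of -0.59. With a stricter gate, and without cycling cells, 0 members were lower in monocyte-like cells. A log2 ratio above 0 with an interval that excluded 0 was seen for Cox7a2l in NK cell-like cells (0.25) and for some complex II genes in myeloid cells: Sdha (0.19) and Sdhd (0.29) in macrophage-like, and Sdha (0.44) and Sdhc (0.40) in monocyte-like cells. None of these 5 reached 1.5-fold. The other complex II genes in these classes had ratios below 0 or with intervals that included 0: Sdhb had a ratio of -0.35 (-0.46 to -0.24) in macrophage-like and -0.19 (-0.42 to 0.04) in monocyte-like cells, Sdhc 0.05 (-0.10 to 0.19) in macrophage-like and Sdhd 0.01 (-0.35 to 0.34) in monocyte-like cells.

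By complex, the sums of complexes I, III, IV and V were lower in library 1 in all 3 classes, with log2 ratios from -0.18 to -0.37. Complex II, the one complex with no mt- subunit, had -0.10 (-0.22 to 0.02), -0.05 (-0.12 to 0.02) and 0.06 (-0.09 to 0.20) in NK, macrophage-like and monocyte-like cells. The TCA cycle, in which complex II also acts, had -0.14, -0.02 and 0.10. The mitochondrial ribosome list had -0.30, -0.30 and -0.24. The mt- mRNAs had ratios above 0, at 0.38, 0.44 and 0.26. Glycolysis had -0.38, -0.42 and -0.61, and 7 of 14 measured glycolysis genes were lower in monocyte-like cells, among them Gapdh (1673 against 2948 CPM) and Aldoa (442 against 800 CPM).

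**Figure D5:**
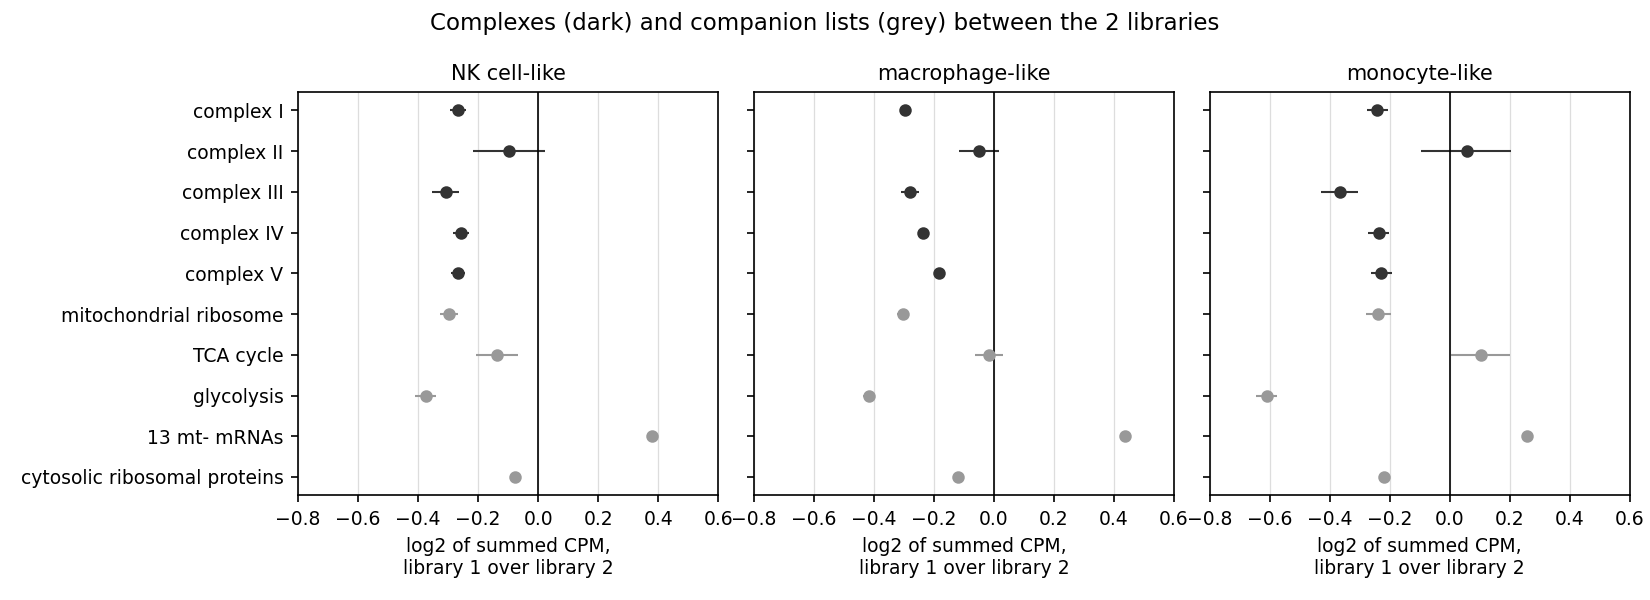
Log2 ratio of summed CPM in library 1 over library 2 for the members of each complex (dark) and for companion lists (grey), in NK cell-like, macrophage-like and monocyte-like cells, with exact 95% intervals from counting error. Complexes I, III, IV and V lie left of 0 in every panel, complex II has intervals that include 0, and the mt- mRNAs lie right of 0.

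The other classes with at least 200000 UMIs had the module lower in library 1 as well: stromal cells by a log2 ratio of -0.25, effector-type CD8 by -0.19, other T by -0.38, regulatory T by -0.58 and naive-type CD8 T cell-like cells by -0.99, a 1.98-fold difference. cDC2-like cells were at -0.03, with an interval from -0.07 to 0.01. On totals without mt-, ribosomal protein and Gm42418 counts, naive-type CD8 was at -0.59, regulatory T at -0.37 and effector-type CD8 at -0.07. Other T was then at -0.37, stromal cells at -0.27 and cDC2-like cells at -0.0024. The share of cycling cells was higher in library 2 in the T and stromal classes, for instance 41.8% against 15.3% of regulatory T cell-like cells. Without cycling cells, regulatory T cell-like cells had 15820 CPM in library 1 and 24667 CPM in library 2. Effector-type CD8 had 21976 and 26839 CPM, other T 20658 and 27106 CPM, naive-type CD8 13287 and 23883 CPM, and stromal cells 21340 and 25138 CPM. The part of cycling in the differences between libraries was not tested.

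Cycling cells, defined by at least 5 UMIs of 8 cell cycle genes, had more of the module than other cells of their class in each of the 6 classes and both libraries examined. The log2 ratio ran from 0.10 in NK cell-like and effector-type CD8 T cell-like cells of library 2 to 0.58 in regulatory T cell-like cells of library 1. In stromal cells it was 0.32 and 0.31, in macrophage-like cells 0.26 and 0.18, and in effector-type CD8 T cell-like cells 0.40 and 0.10. The mt- mRNAs had ratios of 0.43 and 0.25 in macrophage-like and -0.01 and -0.25 in stromal cells. Cycling cells were deeper, for instance 98684 against 38917 median UMIs in stromal cells of library 1, and a gate on UMIs favours deep cells. The part of depth was not tested.

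No member was lower by the rule in 5 of 6 such comparisons, in which 9.74% (macrophage, library 1), 11.5% and 3.63% (NK, libraries 1 and 2), and 13.5% and 2.02% (effector-type CD8) of all genes were lower. Of the members, at most 6 passed 1.5-fold upward in each comparison except that of effector-type CD8 T cell-like cells of library 1. In macrophage-like cells 2 of 77 were higher in library 1 (Ndufb11 and Atp5o) against 9.9% of all genes, and 2 of 86 in library 2 (Cox6b2 and Ndufaf2) against 10.9%. Cox6a2 was the 1 lower member there (2.12 against 5.04 CPM), against 4.15% of all genes. In NK cell-like cells 6 of 75 members were higher in library 1 against 12.2% of all genes, and 1 of 83 in library 2 (Ndufs1) against 9.96%. In effector-type CD8 T cell-like cells 18 of 52 were higher in library 1 against 14.2%, from 12 cycling cells, and 1 of 81 in library 2 (Ndufaf2) against 9.74%.

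Among 908 other genes with at least 50 CPM in each of the 18 class totals, the 5 whose log2 level was most like the module were Psmb3 (Pearson r 0.97), Ube2m (0.96), Psmb5 (0.96), Psmb2 (0.93) and Edf1 (0.92). Psmb2, Psmb3 and Psmb5 encode subunits of the proteasome, Ube2m an enzyme that attaches the ubiquitin-like protein Nedd8, and Edf1 a transcription coactivator. Psmb3 ran from 133 to 513 CPM. These r values are descriptions over 18 points that share 2 libraries.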

How the data were processed

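Per the submitters' processing notes, mm10 was the genome and Cell Ranger the software. Per the file headers, the software was version 3.1.0. The authors deposited 1 matrix of raw UMI counts, with no normalization, that pools both libraries. Gene annotation, the strand used in counting and the handling of reads shared by near-identical copies are steps on which the sources used here are silent. 8 barcode sequences occur in both libraries.

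Cells needed at least 200 genes, 500 UMIs and at most 10% mt- UMIs. No doublet caller was run. Each class required markers of its lineage and the absence of some others. The 3 and 14 cells that met more than 1 class were left out. The stromal gate set no limit on macrophage markers, and T gates other than the naive-type ones set none on NK markers. Stromal cells had 637 and 1213 CPM of the listed macrophage markers in libraries 1 and 2. Gated classes held 3321 and 5442 cells. T cells that could not be subdivided (1155 and 293) and ungated cells (762 and 1349) entered no class. Limits of the gates and of the cell cycle call were chosen with the data in view, and the members and lists were chosen with earlier results of these data known.

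For each class and library, UMIs of a gene were added up and scaled to CPM, and intervals of levels are exact Poisson. Ratios have exact conditional binomial intervals and shares exact Clopper-Pearson intervals, all at 95% and for counting error only. With a single library per group there are no replicates, so p-values are absent throughout. A member counts as higher or lower at 1.5-fold with an interval excluding equality and at least 100 UMIs. A zero was set to 3 counts in a ratio. The ratio was tested on simulated data. Free RNA was estimated from Apoe in lymphoid and pDC-like cells and from Trbc2 in others. It was at most 5.45% of a class outside B cell-like cells.

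Members named are the 5 highest and 5 lowest per comparison among those past the rule, the 10 with the largest range over classes, all tissue-restricted isoforms and the 5 other genes most like the module. Other members and companion genes are named as examples. Cox7a2l, Uqcrh, the complex II genes and the correlations of single members were picked out after their values were seen. Alternatives were other mt- limits, stricter and looser gates, leaving out the top 5% of UMIs or cycling cells, another CPM total, per-cell averages, free RNA subtraction, thinning, no UMI minimum and a 2-fold limit. Gene positions are from GENCODE M21. Promoter windows are from RefSeq on GRCm38.p6, the first listed per gene, with the longer motifs given by name. Software was Python 3.11.15, numpy 2.4.6, scipy 1.17.1, pandas 2.3.3 and matplotlib 3.10.9.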

Additional observations from a re-analysis of the deposited data

How the results depend on the processing

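No paired analysis was possible because each group is 1 library and the library numbers are not tied to groups. The log2 ratio of the module in effector-type over naive-type CD8 T cell-like cells of library 1, 0.86 as reported, was 0.89 with a 5% mt- limit, 0.81 with a looser gate, 0.82 without the top 5% of UMIs, 0.73 without cycling cells, 0.55 on totals without mt-, ribosomal protein and Gm42418 counts, 0.78 as a mean of shares per cell and 0.89 with free RNA subtracted. In library 2 it turned from 0.07 to -0.0029 with a stricter gate, which left 26 naive-type cells.

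The number of members past 1.5-fold between libraries, 2 lower and 0 higher in each of 3 classes, was small under every alternative run. In monocyte-like cells it was 1 lower and 1 higher with the 5% mt- limit and with a looser gate, 0 lower and 1 higher with a stricter gate, and 0 lower without cycling cells. In NK cell-like cells it was 1 lower with a stricter gate and 1 higher with no UMI minimum. Without the top 5% of UMIs, and without cycling cells, it was 4 lower in NK cell-like and 4 lower in macrophage-like cells. At 2-fold it was 0 lower in all 3. On totals without mt-, ribosomal protein and Gm42418 counts, the ratios in macrophage-like cells were -0.20 for complex IV and -0.39 for glycolysis. The module was higher in library 2 in 80 of 81 pairs of class and setting, the exception being cDC2-like cells with a stricter gate, at 0.0073. The cause of these shifts was not tested.

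Counts of members in the effector-type contrast of library 1 under other settings were added after the data were seen: 48 to 66 were higher and 1 lower, Cox7a2l, under the 7 settings run. Counting intervals take no account of differences between mice, and small classes such as 18 pDC-like cells limit the precision.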
